A study of Homo sapiens with 23 samples.

Results

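The comparison was between Caco-2 cells that were co-cultured with HepG2 cells and Caco-2 cells that were cultured alone, both treated with 1 mM FFAs for 1 day. It held 3 co-culture and 3 mono-culture libraries of the 23 in the series, and every gene whose mean reached 1 TPM in either group was compared, 14621 of the 60564 listed. TPM, the deposited unit, scales transcript abundance for length and to a fixed total per library. FFAs, a mixture of palmitic and oleic acid, were present on both sides, so the difference is that of the culture in FFAs-treated cells. Caco-2 is a human colorectal adenocarcinoma line used as a stand-in for gut epithelium, and HepG2 is a human liver cancer line used as a stand-in for hepatocytes. Both were grown in separate chambers of a microfluidic chip, the iGLC platform, whose chambers shared one closed loop of medium in co-culture. Untreated Caco-2 cells (2 co-culture and 3 mono-culture control libraries, also collected after 1 day) served for the same contrast without FFAs. The labels describe a low-serum medium during treatment, whereas the study's methods describe a serum-free medium with albumin. A cancer line lacks the mixture of cells of an intestine, and 1 line stands for each organ.

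In the body, the gut and the liver are joined by the portal vein and by bile. Enterocytes absorb sugars, amino acids and fat, burn or re-esterify fatty acids and package them in lipoproteins, while hepatocytes secrete albumin, fibrinogen and other plasma proteins and turn cholesterol into bile acids. Bile acids act on the nuclear receptor FXR, FFAs act on PPAR receptors, and sterols hold back SREBP2, the factor that turns on cholesterol synthesis. Differentiated Caco-2 cells are known to carry features of both enterocytes and fetal liver.

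In FFAs-treated cells, the higher genes with the smallest p, among those without overlap and with at least 5 TPM in the higher group, included SELENOP, CCKBR, the 3 fibrinogen genes FGA, FGB and FGG, the retinal and alcohol dehydrogenases ALDH1A1 and ADH6, the carbonic anhydrase CA2 and the lipid droplet gene CIDEB, and the disaccharidase SI was higher by the same criteria. The lower genes chosen in the same way included the glucose transporter SLC2A1, the hexokinase HKDC1, the lipase LIPG and the amino acid transporter SLC7A5, and MYC and genes of the entry into S phase were lower as well. Larger fold changes, up to 3.38 and down to -2.35 on the log2 scale, were not used to order genes. Of the 14621 genes, 0 passed an adjusted p under 0.05 (limma on log2(TPM + 1), Benjamini-Hochberg adjustment, smallest adjusted p = 0.435), and 916, or 6.26%, had an unadjusted p under 0.05, where evenly spread p-values would give 731. Each gene below is therefore given as higher or lower by its values, and none exceeded the spread between libraries after adjustment. SOCS3, SERPINA3, ESPN, SLC2A2, PLIN2, HADHB, PDK4, FDPS, TM7SF2, PFKP, FOS, DUSP1, SULT2A1, UGT2B7, UGT2B17 and CYP1A1 were picked as examples after their values were seen, and the other genes were named by a fixed rule.

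A second rule, with the p and fold limits the study's methods state for mono- against co-culture (unadjusted p under 0.01 and a fold of at least 1.2, on the log2(TPM + 1) scale), was met by 179 genes, or 1.22% of those tested. Of these, 82 (0.561% of all genes) were higher and 97 (0.663%) were lower in co-culture. The groups did not overlap for 176 of the 179, which a small p nearly ensures and from which nothing is read (across all genes, 4.79% were higher and 4.73% lower without overlap). The number rested on single libraries, and so did whether a given gene met the rule. It was 91 without co-culture replicate 2, 105 without mono-culture replicate 2, 270 without co-culture replicate 3 and 279 without mono-culture replicate 3, and those fits shared 65, 76, 110 and 114 genes with the 179. Genes at an unadjusted p under 0.01 numbered 185 before the fold limit, where evenly spread p-values would give 146. The fold limit removed few genes, and the median absolute log2 fold change of the 179 was 0.55. Just inside the limit on expression stood AC140134.1, with group means of 1.00 TPM in co-culture and 0.670 TPM in mono-culture, and just outside it stood ADRB1, with 0.997 and 0.703 TPM.

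The libraries bore the marks of Caco-2 cells. The 8 intestinal epithelial markers, among them VIL1, CDH17 and EPCAM, summed to 9440 to 10000 TPM in co-culture and 9700 to 13200 TPM in mono-culture, although KRT20 stayed at 0.460 to 1.80 TPM. The 15 hepatocyte markers were all expressed too, summing to 4850 to 6410 TPM in co-culture and 3810 to 5290 TPM in mono-culture. The labels give myoblasts as the source in the description of the RNA extraction, but 0 of 14 muscle markers reached 1 TPM in either group and 8 were listed at 0 in all 6 libraries. Markers of fibroblasts and endothelium (7 of 13 at a mean of 1 TPM) and of immune cells (6 of 12) summed to 67.1 to 91.1 TPM and 215 to 271 TPM. The number of genes above 0 TPM ran from 20996 to 23682 and was highest in the replicate 3 libraries of both groups, which also stood together on the first principal component of the Caco-2 libraries (21.3% of the variance). Co-culture replicate 2 stood apart on the second (16.4%). Since TPM do not hold read numbers, the depth of each library is unknown and no counting interval is given. The study describes independent experiments and biological replicates, but the labels do not say which libraries came from separate chips or experiments, so p-values measure the spread between these libraries, which may be technical. In bulk RNA, fewer cells of a type and less RNA per cell cannot be told apart.

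Marker RNA of HepG2 cells was raised in one of the co-culture libraries. It was measured by 34 marker genes that reached 50 TPM in all mono-culture controls of HepG2 cells and stayed at or below 1 TPM in all those of Caco-2 cells. Their summed level, as a percent of that in HepG2 cells, was 2.08%, 0.242% and 0.105% in co-culture replicates 1, 2 and 3, and 0.183%, 0.138% and 0.111% in mono-culture. Replicate 1 stood far above the other 5 libraries, which overlapped between the groups. The mean was 0.808% ± 1.1 (SD, n = 3) against 0.144% ± 0.0365 (SD, n = 3), and the difference did not exceed the spread (p = 0.4 by an exact permutation test, two-sided, whose 20 relabellings cannot go below 0.1). In TPM the markers summed to 170 in co-culture replicate 1, with 0 of 34 listed at 0, and to 8.55 to 19.8 in the other 5 libraries, with 2 to 6 listed at 0. For some of the genes that HepG2 cells express, the amount this share would bring is given below beside the value. Where it is left out, an amount may still be present. The share would bring 3.97 TPM of ALDH1A1 and 8.86 TPM of SLC2A1 to co-culture replicate 1, for example. The amount is an estimate that did not hold for every gene, since the share would bring 14.1 TPM of IGFBP1, an IGF-binding protein, where 2.29 TPM was measured.

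**Figure D1:**
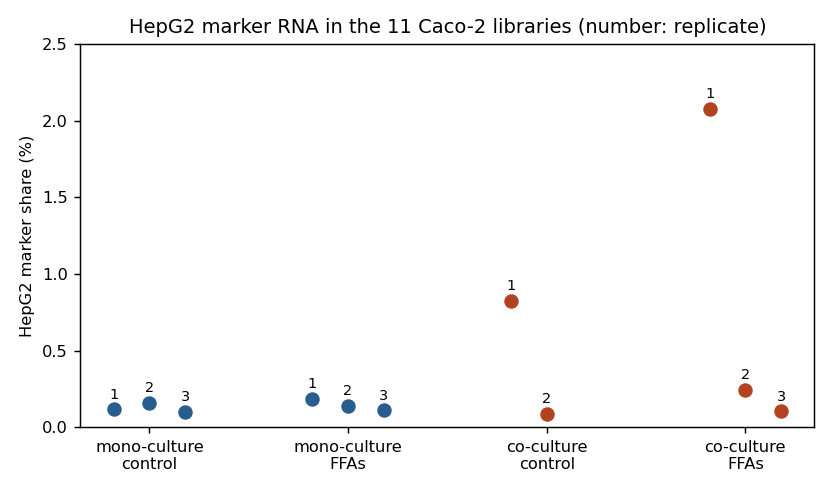
HepG2 marker share (y axis, percent of the level in HepG2 mono-culture control cells) of each of the 11 Caco-2 libraries, by group (x axis), with 1 point per library and the replicate number above it. Co-culture replicate 1 is highest in both treatments, at 2.08% with FFAs and 0.826% in the control, and the other 9 libraries lie between 0.0884% and 0.242%.

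Among secreted and plasma proteins, SELENOP (ENSG00000250722, GRCh38 chromosome 5, 42799880 to 42887392, minus strand), which encodes selenoprotein P, the carrier that brings selenium to tissues, had the smallest p of the genes that are not near the limit of expression. Its level was 276, 297 and 251 TPM in co-culture replicates 1, 2 and 3 and 134, 173 and 200.007 TPM in mono-culture, and values are given in this order throughout. All 3 co-culture libraries lay above all 3 of mono-culture, and the log2 difference was 0.71 (limma SE 0.13, adjusted p 0.435). The HepG2 share would bring 43.7 TPM to co-culture replicate 1, and the log2 fold change was the same, 0.71, without that library. SERPINF1, which encodes the secreted factor PEDF, stood at 46.9, 41.7 and 35.6 TPM against 21.0, 21.1 and 30.4 TPM. That is a log2 difference of 0.77 (limma SE 0.17, adjusted p 0.521), and it was 0.67 without co-culture replicate 1. With the HepG2 share subtracted from the co-culture libraries it was 0.48, short of the second rule. Nothing was subtracted from mono-culture libraries, here or below, so the subtraction could only lower a difference.

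The fibrinogen chains FGA, FGB and FGG, which form the clotting protein of plasma and belong to the acute-phase response that IL-6 drives through STAT3, were all higher in co-culture. FGB (ENSG00000171564, chromosome 4, 154563011 to 154572807) had 208, 180.5 and 166 TPM in co-culture against 39.3, 94.5 and 118 TPM in mono-culture, a log2 difference of 1.27 (limma SE 0.32, adjusted p 0.719). FGG (ENSG00000171557, 154604134 to 154612967, minus strand) had 767, 909 and 688 TPM against 255, 482 and 508 TPM, a log2 difference of 0.98 (limma SE 0.24, adjusted p 0.662). FGA (ENSG00000171560, 154583126 to 154590742, minus strand) had 75.2, 74.9 and 56.6 TPM against 31.5, 36.7 and 48.3 TPM, a log2 difference of 0.82 (limma SE 0.18, adjusted p 0.548). For each chain the 2 groups did not overlap, and mono-culture replicate 1 was the lowest of the 6 libraries. Without that library FGB differed by 0.80. The HepG2 share would bring 33.8 TPM of FGA, 38.6 TPM of FGB and 75.2 TPM of FGG to co-culture replicate 1, and the log2 fold changes without that library were 0.75, 1.18 and 0.99. With the share subtracted from the co-culture libraries they were 0.50, 1.15 and 0.92.

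The 3 genes lie side by side on chromosome 4, and the 250 bases before the RefSeq start of FGA and FGB are shown because the chains were higher together. That of FGG is not shown, since GENCODE transcripts of FGG begin upstream of the RefSeq start, within that stretch or beyond it. The sequences are those of RefSeq (GRCh38.p14), where 3 of 3 symbols were found, FGB with 2 entries of which the first is shown. Capitals mark matches on either strand to GTTAAT (a half-site of the hepatic factor HNF1), CTGGGAA (the IL-6 response element) and TTGCNNAA (a loose pattern for the site of C/EBP factors).
FGA chr4:154590743-154590992 minus strand: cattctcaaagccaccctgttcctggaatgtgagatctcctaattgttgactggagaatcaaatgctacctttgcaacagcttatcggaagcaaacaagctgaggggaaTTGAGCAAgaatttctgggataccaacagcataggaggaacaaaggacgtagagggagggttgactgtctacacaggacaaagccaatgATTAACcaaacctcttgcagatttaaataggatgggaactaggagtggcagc
FGB chr4:154562730-154562979 plus strand: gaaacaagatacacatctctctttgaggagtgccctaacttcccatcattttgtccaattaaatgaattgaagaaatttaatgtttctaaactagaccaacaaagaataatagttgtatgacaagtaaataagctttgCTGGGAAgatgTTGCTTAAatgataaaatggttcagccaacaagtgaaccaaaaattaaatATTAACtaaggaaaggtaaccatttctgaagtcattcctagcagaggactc
FGA held 1 HNF1 half-site and 1 match to the C/EBP pattern, FGB held 1 of each of the 3 motifs, and the 250 bases before the RefSeq start of FGG held 1 IL-6 response element. Of 35116 promoters of the same length, 6.23% held GTTAAT, 9.15% CTGGGAA and 9.05% TTGCNNAA, and no match overlapped another. A match is a description of these letters and not a measured binding site.

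Of the whole list of acute-phase and IL-6/STAT3 genes, 12 of 16 were tested, 11 were higher and 1 lower, and the median log2 fold change was 0.41, where it was 0.01 over all 14621 genes and 51.9% of all genes were higher and 48.0% lower. The 3 fibrinogen chains were its members that met the second rule, which FGA no longer met with the HepG2 share subtracted and FGB no longer met without co-culture replicate 1. The list's median was 0.24 without co-culture replicate 1 and 0.08 with the HepG2 share subtracted. Whether HepG2 RNA moved it was not tested. SOCS3, the feedback inhibitor of IL-6 signalling, had 8.42, 10.9 and 14.5 TPM against 8.51, 8.41 and 7 TPM, so that the groups overlapped (log2 difference 0.43, limma SE 0.19, adjusted p 0.797, and 0.24 to 0.61 with 1 library left out). SERPINA3, an acute-phase protease inhibitor, had 19.2, 1.52 and 3.14 TPM against 2.34, 2.59 and 2.48 TPM. The HepG2 share would bring 19.4 TPM of it to co-culture replicate 1, as much as was measured there. ALB, which encodes albumin, had 769, 714 and 328 TPM against 352, 437 and 321 TPM, where the HepG2 share would bring 555 TPM to co-culture replicate 1, and its log2 difference of 0.62 (limma SE 0.31, adjusted p 0.830) turned to -0.08 when the share was subtracted.

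CCKBR (ENSG00000110148, chromosome 11, 6259806 to 6272127), the receptor of the gut hormones gastrin and cholecystokinin, separated the groups evenly. Its level was 17.6, 17.4 and 15.4 TPM in co-culture and 7.93, 6.97 and 7.45 TPM in mono-culture, or 16.8 ± 1.26 (SD, n = 3) against 7.45 ± 0.480 TPM (SD, n = 3). The gap between the groups was wider than the range within either, the log2 difference was 1.07 (limma SE 0.21, adjusted p 0.509), and the HepG2 share would bring 0.0017 TPM. CA2, the cytosolic carbonic anhydrase, had 74.9, 78.1 and 68.1 TPM against 46.2, 53.3 and 46.4 TPM, a log2 difference of 0.59 (limma SE 0.13, adjusted p 0.521). SI, the sucrase-isomaltase of the brush border, had 13.5, 16.6 and 12.4 TPM against 4.23, 7.67 and 9.32 TPM, a log2 difference of 0.96 (limma SE 0.25, adjusted p 0.719). The HepG2 share would bring 0.0145 TPM of CA2 and 0.0006 TPM of SI to co-culture replicate 1. SNAI1, a transcription factor known for repressing E-cadherin, had 18.9, 16.3 and 21.2 TPM against 12.3, 9.80 and 12.6 TPM (log2 difference 0.66, limma SE 0.14, adjusted p 0.521). Beside SI, the brush border and enterocyte list (26 of 30 tested) had 19 members higher and 7 lower, with a median log2 fold change of 0.12 that ranged from 0.02 to 0.31 with 1 library left out at a time. ESPN, an actin bundler of microvilli, and SLC2A2, the sugar transporter of the basolateral membrane, were members with an unadjusted p under 0.05 whose groups overlapped, and their log2 fold changes were 0.55 and 0.74.

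**Figure D2:**
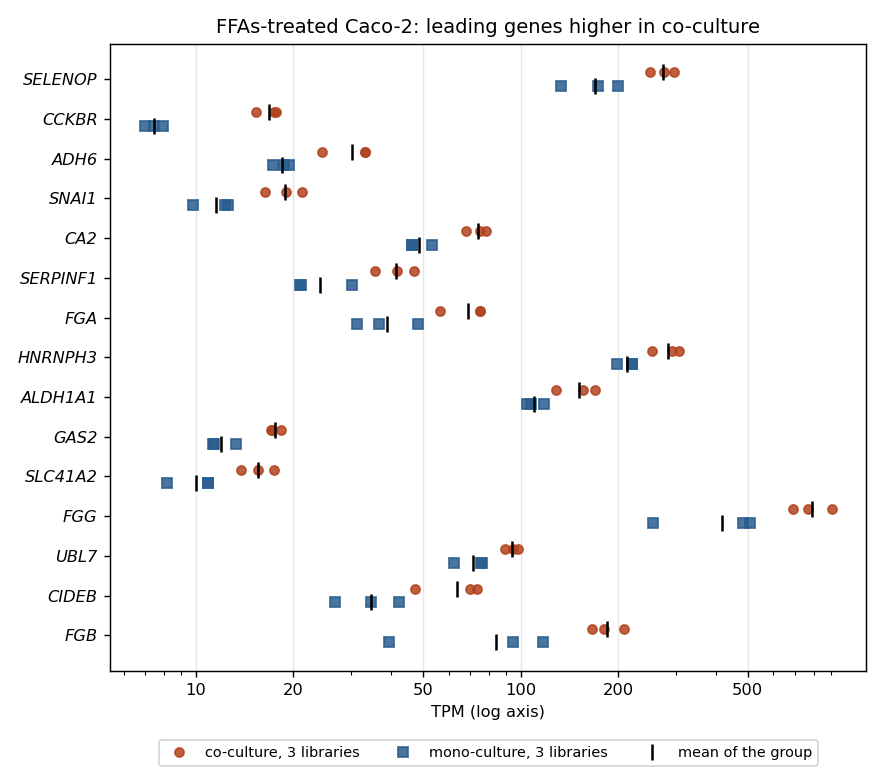
TPM (x axis, log scale) of the 15 leading genes that were higher in co-culture, 1 row per gene in order of p, with each co-culture library as a circle, each mono-culture library as a square and the group means as bars. The rule that chose these genes required groups that do not overlap, and CCKBR, with 15.4 to 17.6 against 6.97 to 7.93 TPM, shows one of the tightest pairs of groups.

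Enzymes of retinoid, alcohol and fat handling were among the leading higher genes. ALDH1A1, which makes retinoic acid, had 155, 169.8 and 129 TPM in co-culture and 108, 118 and 105 TPM in mono-culture, a log2 difference of 0.45 (limma SE 0.10, adjusted p 0.589). ADH6, an alcohol dehydrogenase, had 33.1, 33.2 and 24.5 TPM against 17.3, 18.8 and 19.3 TPM, a log2 difference of 0.67 (limma SE 0.14, adjusted p 0.521). CIDEB, a lipid droplet protein that serves the loading of lipoproteins, had 69.9, 73.5 and 47.2 TPM against 26.8, 42.4 and 34.8 TPM, a log2 difference of 0.85 (limma SE 0.22, adjusted p 0.719). In all 3, co-culture replicate 3 was the lowest of its group and still above mono-culture. The rest of the leading 15 were GAS2, HNRNPH3, SLC41A2 and UBL7, with log2 fold changes of 0.51, 0.42, 0.60 and 0.40.

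Targets of PPAR and enzymes of fatty acid oxidation are the genes that FFAs are known to turn on, and FFAs were present on both sides here. Of 34 listed, 31 were tested, 23 were higher and 8 lower in co-culture, the median log2 fold change was 0.13, and it ranged from 0.08 to 0.21 with 1 library left out at a time. At an unadjusted p under 0.05, 5 members were higher and 0 lower, where 3.03% of all genes were higher and 3.24% lower, and 0 met the second rule. SLC25A20, the carrier that takes acylcarnitines into mitochondria, had 83.4, 75.1 and 64.7 TPM against 49.999, 50.9 and 66.8 TPM. ECI2, an isomerase for unsaturated fatty acids, had 95.5, 104 and 70.5 TPM against 74.7, 71.4 and 54.9 TPM. PLIN2, the coat protein of lipid droplets, had 223, 239 and 254 TPM against 140.1, 165 and 252 TPM. For each of these the groups overlapped through 1 or more replicate 3 libraries, and the log2 fold changes were 0.41 (SE 0.14), 0.41 (SE 0.15) and 0.41 (SE 0.17), with limma adjusted p-values of 0.769, 0.793 and 0.793. The difference of PLIN2 ran from 0.23 to 0.65 with 1 library left out at a time. The other members at that level were HADHB, a subunit of the mitochondrial trifunctional protein, and PDK4, the kinase that turns off pyruvate dehydrogenase. Triglyceride, lipid droplet and lipoprotein genes had 19 of 26 tested members higher and a median of 0.11 (0.02 to 0.16 with 1 library left out at a time), with CIDEB as the member that met the second rule. CIDEB no longer met it without co-culture replicate 1 (log2 fold change 0.77).

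Genes of cholesterol synthesis were lower by small amounts. Of 26 SREBP2-regulated genes tested, 25 were lower and 1 higher in co-culture, the median log2 fold change was -0.15, and it ranged from -0.20 to -0.11 with 1 library left out at a time. The groups did not overlap for 9 of the 25 lower members, where 4.73% of all genes were lower without overlap. None met the second rule. At an unadjusted p under 0.05, 3 members (11.5% of those tested) were lower, where 3.24% of all genes were. Among them were FDPS, which makes farnesyl diphosphate, with 297, 295 and 271 TPM against 456, 439 and 341 TPM (log2 fold change -0.51, SE 0.20), and MVD, which decarboxylates mevalonate diphosphate, with 215, 207 and 190.0 TPM against 249, 259 and 235 TPM (-0.28, SE 0.11). Their limma adjusted p-values were both 0.793. TM7SF2, a sterol reductase, was the one higher member, at 187, 294 and 176 TPM against 163, 175 and 158 TPM, and co-culture replicate 2 was far above the other 5 libraries. In the Caco-2 controls, 24 of the 26 cholesterol genes were lower in co-culture and 2 higher, with a median of -0.20. Between co-cultured and mono-cultured HepG2 cells with FFAs, the median of the 25 tested there was -0.30. In FFAs-treated Caco-2 cells, genes of fatty acid synthesis and desaturation gave 10 lower and 4 higher of 14 tested, with a median of -0.11. ME1, the malic enzyme that supplies NADPH for it, was lower without overlap, at 95.3, 91.5 and 106 TPM against 131, 115 and 109.6 TPM (log2 difference -0.28, limma SE 0.09, adjusted p 0.769).

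The leading lower genes included a transporter and a hexokinase of glucose. SLC2A1 (ENSG00000117394, chromosome 1, 42925353 to 42958893, minus strand), the glucose transporter GLUT1, had 184, 109 and 148 TPM in co-culture and 349.7, 284 and 233 TPM in mono-culture. The means were 147 ± 37.6 and 289 ± 58.7 TPM (SD, n = 3 each), a log2 difference of -0.98 (limma SE 0.20, adjusted p 0.521). HKDC1, a hexokinase, had 49.9, 42.5 and 48.5 TPM against 69.1, 79.7 and 69.6 TPM, a log2 difference of -0.62 (limma SE 0.12, adjusted p 0.509). For both genes every co-culture library lay below every mono-culture one. PFKP, a phosphofructokinase, had 94.3, 86.0 and 88.9 TPM against 185, 144 and 102 TPM, a log2 difference of -0.64 (limma SE 0.19, adjusted p 0.719). The hypoxia and glycolysis list, which holds SLC2A1 but neither HKDC1 nor PFKP, was not lower throughout. Of 24 tested members 14 were lower and 10 higher, with a median of -0.09. At an unadjusted p under 0.05, 3 members (12.5%) were higher, where 3.03% of all genes were. By the same limit 1 member (4.17%), SLC2A1, was lower, where 3.24% of all genes were. Among the higher members stood NDRG1, a gene that low oxygen turns on, at 42.4, 46.9 and 35.7 TPM against 21.8, 30.1 and 34.8 TPM (log2 difference 0.53, limma SE 0.16, adjusted p 0.719, and 0.35 without mono-culture replicate 1).

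**Figure D3:**
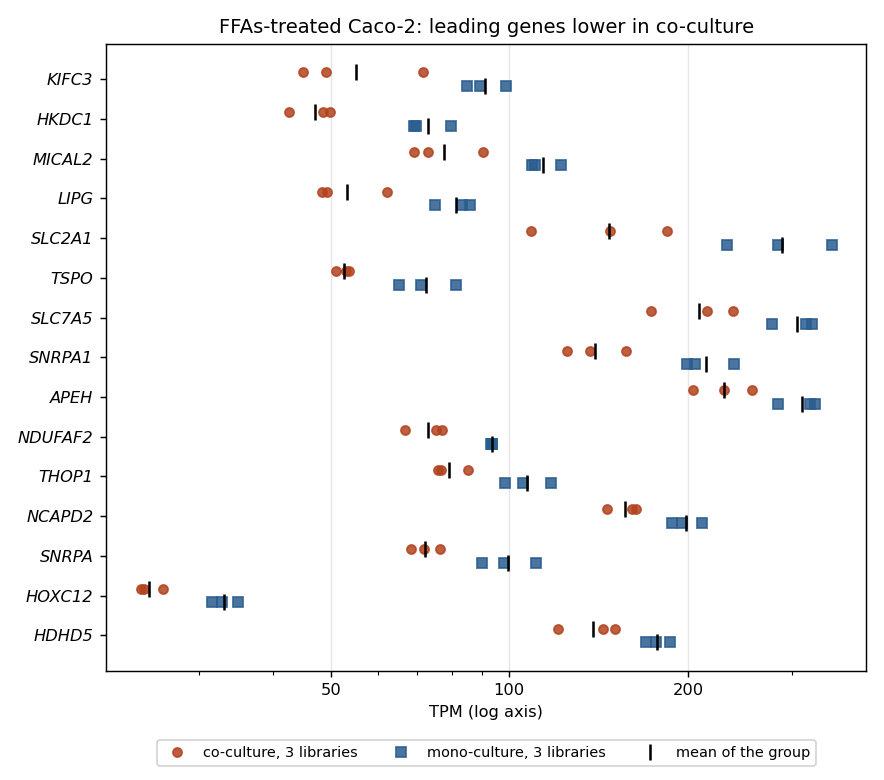
TPM (x axis, log scale) of the 15 leading genes that were lower in co-culture, 1 row per gene in order of p, with each co-culture library as a circle, each mono-culture library as a square and the group means as bars. The largest difference among them is that of SLC2A1 (109 to 184 against 233 to 349.7 TPM), and the 3 mono-culture libraries of NDUFAF2 lie between 93.3 and 93.7 TPM.

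Other leading lower genes acted in lipid, amino acid and mitochondrial metabolism. LIPG, the endothelial lipase that cleaves phospholipids of HDL, had 62.2, 49.3 and 48.3 TPM in co-culture against 83.1, 74.9 and 85.9 TPM in mono-culture, a log2 difference of -0.61 (limma SE 0.12, adjusted p 0.509). SLC7A5, the carrier of large neutral amino acids, had 215, 173 and 239 TPM against 323, 317 and 277 TPM, a log2 difference of -0.56 (limma SE 0.12, adjusted p 0.521). TSPO, a cholesterol-binding protein of the outer mitochondrial membrane, had 51.0, 52.97 and 53.7 TPM against 81.4, 70.9 and 65.2 TPM, a log2 difference of -0.45 (limma SE 0.10, adjusted p 0.521). NDUFAF2, an assembly factor of respiratory complex I, had 75.1, 66.8 and 77.0 TPM against 93.7, 93.5 and 93.3 TPM, and its mono-culture libraries hardly differed (93.5 ± 0.201 TPM, SD, n = 3). Its log2 difference was -0.36 (limma SE 0.08, adjusted p 0.528). The subunits of the respiratory chain and ATP synthase themselves had 49 of 75 tested members lower and 26 higher, a median of -0.04 and 0 members that met the second rule.

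KIFC3, a minus-end kinesin of microtubules, and MICAL2, which oxidizes actin and takes filaments apart, were lower as well. KIFC3 had 45.0, 49.0 and 71.7 TPM in co-culture against 98.9, 85.0 and 89.4 TPM in mono-culture, with co-culture replicate 3 nearest to mono-culture (log2 difference -0.74, limma SE 0.14, adjusted p 0.509). Without that library the difference was -0.94 and KIFC3 passed the adjusted threshold, as did the histone gene HIST1H4K. MICAL2 had 69.2, 72.8 and 90.5 TPM against 110.4, 109 and 122 TPM (log2 difference -0.56, limma SE 0.11, adjusted p 0.509). The peptidases APEH and THOP1, the spliceosome proteins SNRPA1 and SNRPA, the condensin subunit NCAPD2, the homeobox gene HOXC12 and HDHD5 made up the rest of the 15, with log2 fold changes from -0.62 in SNRPA1 to -0.34 in NCAPD2.

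Genes of the G1/S transition and DNA replication were lower nearly throughout. All 30 listed were tested, 29 were lower and 1 higher, the median log2 fold change was -0.26, and it ranged from -0.36 to -0.16 with 1 library left out at a time. At an unadjusted p under 0.05, 11 of the 30 were lower and 0 higher, where 3.24% of all genes were lower. The mean log2(TPM + 1) of the list was 5.95, 5.58 and 5.81 in co-culture against 6.21, 6.02 and 5.87 in mono-culture, so the groups overlapped. In the controls all 30 were lower in co-culture, with a median of -0.22. CCND1, the cyclin that opens G1, had 233, 256 and 271 TPM in co-culture against 358, 286 and 393 TPM in mono-culture. MCM7, a subunit of the replicative helicase, had 219.8, 164 and 219 TPM against 288, 281 and 238 TPM. CDT1, which loads that helicase on origins, had 45.0, 42.5 and 49.3 TPM against 69.2, 55.2 and 57.6 TPM. These were the 3 members that met the second rule, without overlap between the groups and with log2 fold changes of -0.44 (SE 0.12), -0.43 (SE 0.13) and -0.40 (SE 0.12), and their limma adjusted p-values were 0.719, 0.719 and 0.732. Without co-culture replicate 1, CCND1 (-0.38) and CDT1 (-0.39) no longer met it. Genes of mitosis and the spindle checkpoint gave 20 lower and 10 higher of 30 tested, with a median of -0.07 that changed sign with the library left out (-0.15 to 0.03), and AURKB, the mitotic kinase, was the member at an unadjusted p under 0.05 (log2 fold change -0.30, SE 0.12). MYC, a transcription factor that promotes growth and S phase, had 83.0, 107 and 101 TPM against 172, 128 and 142 TPM, a log2 difference of -0.59 (limma SE 0.15, adjusted p 0.719). BCL2L1, which encodes the survival protein BCL-xL, had 115, 128 and 165 TPM against 186, 168 and 182 TPM, a log2 difference of -0.40 (limma SE 0.12, adjusted p 0.719).

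Immediate-early and NF-kB response genes, which answer to stress and to handling within minutes, were scattered. Of 24 tested, 20 were higher in co-culture and 4 lower, with a median of 0.28, but that median ranged from 0.01 to 0.71 with 1 library left out at a time. FOS had 165, 928 and 315 TPM in co-culture against 517, 172 and 155 TPM in mono-culture, and DUSP1, a phosphatase of the same response, had 87.2, 275 and 233 TPM against 141, 84.4 and 112 TPM. In both genes the libraries of a group differed more than the groups did, and 0 members of the list were higher at an unadjusted p under 0.05.

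**Figure D4:**
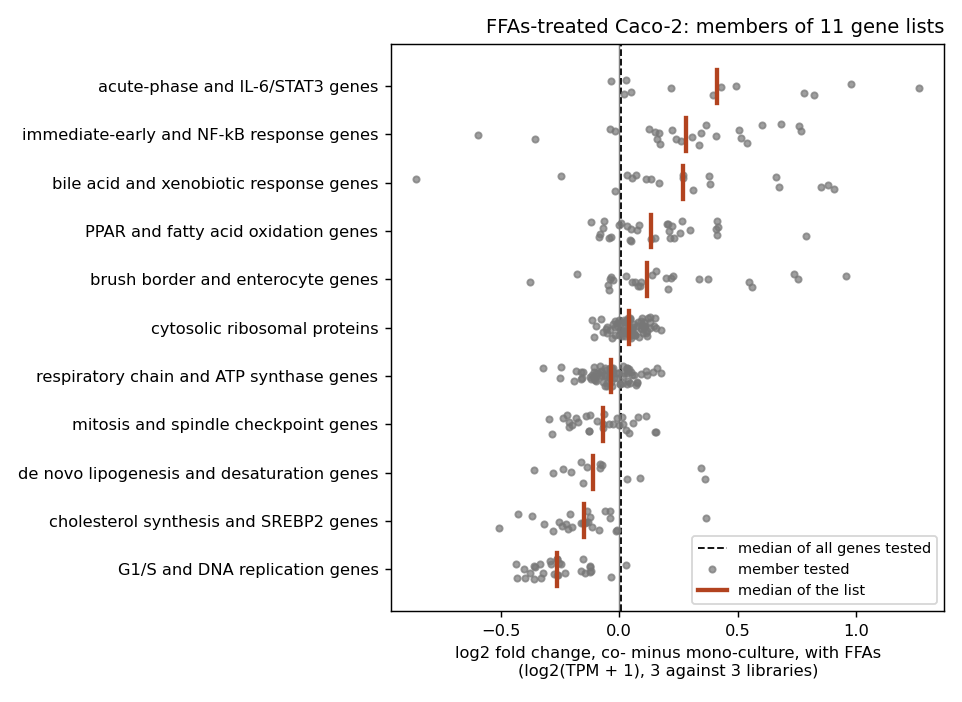
Log2 fold change (x axis, co-culture minus mono-culture with FFAs) of each tested member of 11 of the gene lists (y axis), with 1 point per gene, a thick bar at the median of the list and a dashed line at the median of all genes tested. The medians run from 0.41 for acute-phase genes to -0.26 for G1/S and DNA replication genes, beside 0.01 for all genes, and those of ribosomal proteins and of the respiratory chain are 0.04 and -0.04.

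Bile acid and xenobiotic response genes gave 16 higher and 3 lower of 19 tested, with a median of 0.27 that ranged from 0.20 to 0.36 with 1 library left out at a time. NR0B2, which encodes SHP, the repressor that FXR turns on in answer to bile acids, had 7.93, 5.66 and 6.57 TPM in co-culture against 3.68, 3.66 and 2.14 TPM in mono-culture, a log2 difference of 0.91 (limma SE 0.25, adjusted p 0.719). The HepG2 share would bring 3.13 TPM of NR0B2 to co-culture replicate 1, and its log2 fold change was 0.80 without that library and 0.66 with the share subtracted, in both cases short of the second rule. SULT2A1, a sulfotransferase for bile acids and steroids, had 29.2, 40.8 and 27.9 TPM against 16.2, 17.8 and 26.7 TPM (log2 difference 0.67, limma SE 0.23, adjusted p 0.770). The glucuronidation enzymes UGT2B7 and UGT2B17, close paralogs whose reads the counting may share, had log2 fold changes of 0.88 (SE 0.30) and 0.85 (SE 0.30). UGT2B17 was low, with means of 1.47 and 0.377 TPM, and its value was 1.98 with a pseudocount of 0.1. CYP1A1, the target of the dioxin receptor, stood apart on the lower side through mono-culture replicate 3, at 92.6, 56.4 and 60.9 TPM against 82.3, 83.1 and 280.3 TPM.

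Among 27 ABC transporters tested, 12 were higher and 15 lower, and 2 met the second rule in opposite directions. ABCB1, the drug pump P-glycoprotein of the apical membrane, had 52.1, 63.4 and 54.6 TPM in co-culture against 40.3, 31.0 and 33.1 TPM in mono-culture, a log2 difference of 0.69 (limma SE 0.22, adjusted p 0.752). ABCG2, the apical pump BCRP, had 8.30, 8.06 and 7.94 TPM against 15.9, 14.97 and 9.03 TPM, a log2 difference of -0.62 (limma SE 0.19, adjusted p 0.719). Neither overlapped, though mono-culture replicate 3 of ABCG2 lay within 1 TPM of co-culture. Without co-culture replicate 1 both fell short of the second rule, with log2 fold changes of 0.75 for ABCB1 and -0.63 for ABCG2. With the HepG2 share subtracted, ABCB1 fell short as well (0.67). In each of the lists that follow, 0 or 1 member met the second rule. Of 76 ribosomal protein genes 58 were higher, with a median of 0.04, and of 16 metallothionein, copper and zinc genes 13 were higher, with a median of 0.13. Their metallothionein MT1G had 3.76, 1.80 and 0 TPM against 0.600, 0 and 0 TPM, with 5.70 TPM that the HepG2 share would bring to co-culture replicate 1. Of 21 tight junction and barrier genes 11 were higher, and CLDN2, a claudin that forms cation pores, had 2.71, 1.78 and 1.1 TPM against 6.73, 5.02 and 2.38 TPM (log2 difference -0.95, limma SE 0.41, adjusted p 0.797). Of 29 endoplasmic reticulum stress and ATF4 genes 14 were higher, with a median of -0.02, of 20 NRF2 and glutathione genes 11, with 0.02, and of 18 p53, DNA damage and apoptosis genes 13, with 0.10. The medians of all 3 changed sign with the library left out.

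The same contrast in untreated Caco-2 cells used none of these 6 libraries, but its libraries were not shown to be independent of them. Deviations of same-numbered treated and control libraries correlated at 0.296 and -0.008 in co-culture replicates 1 and 2. In mono-culture replicates 1, 2 and 3 they did so at 0.082, 0.096 and 0.331. Co-culture replicate 1 had the highest HepG2 share in both treatments (2.08% and 0.826%). Whether these moved the values that follow was not tested. Of the 82 genes that were higher in co-culture with FFAs, 72 (87.8%) were also higher in co-culture controls, where 57.8% of all genes were higher, and of the 97 lower genes 78 (80.4%) were also lower, where 41.8% of all were lower. All 15 leading higher and all 15 leading lower genes had the same direction there. CCKBR had 15.1 and 15.6 TPM in the 2 co-culture controls against 8.90, 5.59 and 4.03 TPM in mono-culture, and SLC2A1 had 173 and 127 TPM against 305, 276 and 227 TPM. Across the 14621 genes the log2 fold changes of the 2 contrasts had a Pearson r of 0.26, given as a description since genes are not independent replicates.

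**Figure D5:**
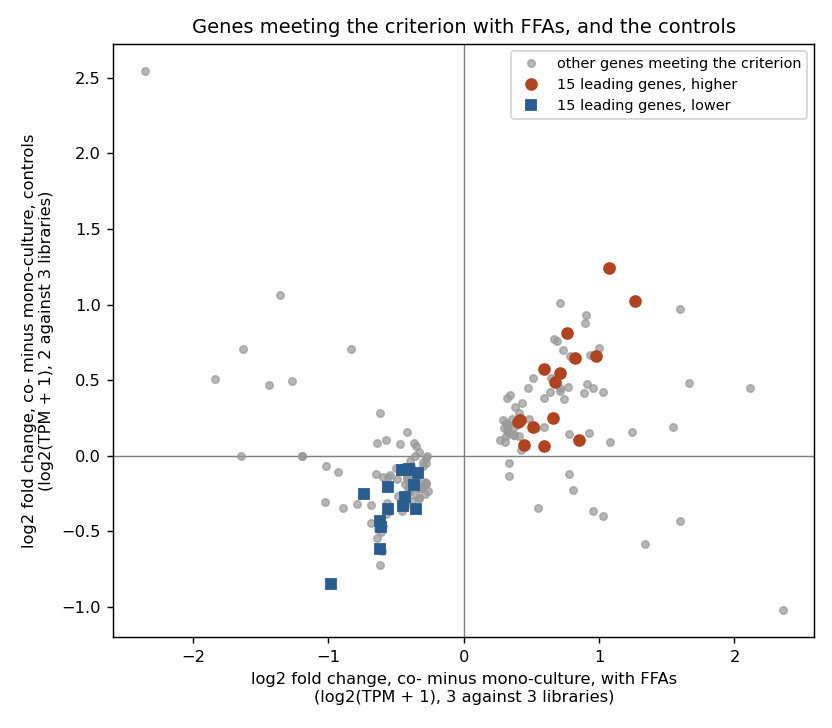
Log2 fold change of co-culture minus mono-culture with FFAs (x axis) and in untreated controls (y axis) for the 179 genes that met the second rule with FFAs, with the 15 leading higher genes as large circles and the 15 leading lower genes as squares. All 30 leading genes lie in the quadrants of equal sign, and of the 82 higher genes 72 lie above 0 in the controls.

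Whether the co-culture difference itself differed between FFAs-treated and untreated cells was tested as the interaction in the same fit. It passed an adjusted p under 0.05 for 0 of 14621 genes (limma, smallest adjusted p = 0.9999). An unadjusted p under 0.05 was reached by 259 genes (1.77%), 1.28% of all genes being lower and 0.492% higher, where evenly spread p-values would give 731. With fewer small p-values than that and only 2 co-culture controls, 0 calls do not show that the differences were alike. The second rule was met by 36 genes (0.246%), 11 higher (0.0752%) and 25 lower (0.171%). That last count was 86 without co-culture replicate 3 and 60 without mono-culture replicate 1. Some leading genes were nearly level in the controls. CA2 differed by 0.59 with FFAs and by 0.06 in the controls, an interaction of 0.53 (SE 0.19), ALDH1A1 by 0.45 and 0.07, an interaction of 0.37 (SE 0.15), and CIDEB by 0.85 and 0.10, an interaction of 0.75 (SE 0.32), each with a limma adjusted p of 0.9999. SELENOP, HKDC1 and NDUFAF2 differed by 0.71 and 0.55, by -0.62 and -0.62, and by -0.36 and -0.35. Their interactions were 0.16 (SE 0.19), -0.01 (SE 0.18) and -0.01 (SE 0.12). The widest interactions among genes with at least 5 TPM in a group were those of low or uneven genes. HIST1H4K, which encodes a histone H4 and belongs to a family of near-identical copies, was listed at 0, 0 and 7.83 TPM in co-culture and at 7.38, 10.2 and 11.6 TPM in mono-culture with FFAs, and at 6.10 and 3.79 TPM in co-culture and 0 in all 3 mono-culture libraries without FFAs. AP000769.1, a pseudogene transcript on chromosome 11 (65455269 to 65455581), had 12.8, 17.2 and 18.3 TPM against 2.64, 1.53 and 2.93 TPM with FFAs, while its controls ran from 1.51 to 16.8 TPM. AL161437.1, annotated as a miscellaneous RNA, ran from 6.31 to 36.0 TPM with FFAs, with overlapping groups.

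The same genes were looked up in HepG2 cells on the other side of the chip. Between co-cultured and mono-cultured HepG2 cells with FFAs, 20 of the 63 higher genes that could be tested there were higher (31.7%, against 48.6% of all genes) and 28 of 80 lower genes were lower (35.0%, against 51.3%). SELENOP differed by -0.17 and SLC2A1 by 0.49 on the log2 scale, and the fibrinogen chains FGA, FGG and FGB by -0.34, -0.34 and -0.22. LIPG, MICAL2 and ABCB1 kept their direction there, at -0.40, -0.46 and 0.50. The shares were not tested.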

How the data were processed

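mRNA-seq of Caco-2 cells was analysed from the TPM values that the authors deposited. Per the study's methods and the submitters' processing notes, the authors removed reads of rRNA, tRNA and the mitochondrial genome with Bowtie2 2.1.0, mapped the rest to GRCh38 (Ensembl 98) with STAR 2.7.1a and computed TPM per gene with RSEM 1.3.0. TPM hold no read counts, so the depth is unknown and count models were not run.

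Log2(TPM + 1) of the 14621 genes kept by a minimum group mean of 1 TPM was fitted with limma 3.58.1 (R 4.3.3, trended eBayes) over all 11 Caco-2 libraries in 4 groups, which share 1 estimate of the spread (7 residual degrees of freedom). p-values were adjusted by Benjamini-Hochberg over all genes. The interaction came from the same fit, and HepG2 cells were fitted separately. Tested on simulated data, the fit recovered 15.5% of 200 genes changed by 0.5 on the log2 scale, 82% by 1 and 98% by 2. The changed genes were drawn from those with a mean log2(TPM + 1) above 2, and the noise was normal and independent between libraries. Effects shared by libraries and HepG2 RNA were not simulated, so these shares do not give the power over all genes in these data. Gene positions are those of GENCODE 44.

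Named genes were up to 15 per direction with the smallest p among those that met the second rule, did not overlap and reached 5 TPM in the higher group, then list members that met the rule or else the 2 with the smallest p, ABCG2 and ALB, and 3 interaction genes. Members and lists were chosen with earlier results of these data known. Some named items are not reported here. Alternatives were another pseudocount, filter, scaling or variance model, the 6 libraries alone, a replicate block and leaving out each library. Another was subtraction of the HepG2 share from co-culture libraries, with mono-culture libraries left as they were. Figures were drawn with matplotlib 3.10.9.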

Additional observations from a re-analysis of the deposited data

How the results depend on the processing

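Of 1946 alternative values, 1899 were classed as the same as reported, 35 as moved, 5 as reversed and 7 as stronger. Counts of genes were classed as the same within a set margin, so 243 genes without co-culture replicate 1 were the same as 179. For the HepG2 share only a change of sign could count, since its permutation p cannot reach 0.05. Genes past the adjusted p, 0 as reported, numbered 2 with no filter on low values and 2 with no variance trend (RN7SL199P and RN7SL656P in both cases), 1 with the HepG2 share subtracted, and 0 to 2 with single libraries left out. All of these were lower in co-culture, and the 2 found without co-culture replicate 3 were KIFC3 (-0.94) and HIST1H4K (-3.40). Genes that met the second rule ran from 91 to 279 with single libraries left out. The replicate block gave 308 of them and 170 for the interaction. Replicate numbers were not shown to pair the samples throughout. Between the FFAs-treated groups, deviations of same-numbered libraries correlated at 0.146, -0.039 and 0.242 for replicates 1, 2 and 3. Across all Caco-2 groups, these correlations ran from 0.057 to 0.296, from -0.106 to 0.096 and from 0.242 to 0.331. Not every library correlated best with its own number. Co-culture control replicate 2 correlated at 0.309, 0.232 and 0.200 with replicate 3 of co-culture FFAs, mono-culture FFAs and mono-culture control. With replicate 2 of those groups it correlated at -0.008, -0.036 and -0.106, and the replicate block took it as replicate 2. The main fit held no replicate term and gave 916 genes at an unadjusted p under 0.05, where the replicate block gave 1278. For the interaction, 10 genes passed the adjusted p with no filter, 2 with no trend and 0 to 1 with single libraries left out, and the second rule was met by 144 with no filter, 13 at a minimum of 5 TPM, 59 with no trend and 32 to 86 with single libraries left out. The cause of these shifts was not tested.

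Medians of lists moved as follows. With the HepG2 share subtracted, acute-phase genes had 0.081 and urea cycle and amino acid genes 0.047, and the latter had 0.027 at a minimum of 5 TPM. With single libraries left out, medians ran from 0.239 to 0.438 for acute-phase genes, 0.014 to 0.154 for urea cycle genes, -0.222 to -0.053 for fatty acid synthesis, -0.046 to -0.001 for ABC transporters, -0.028 to 0.136 for NRF2 genes, 0.024 to 0.314 for brush border genes, -0.066 to 0.074 for tight junction genes and -0.252 to 0.255 for fibroblast and endothelial markers. Those of p53 genes ran from -0.007 to 0.227, endoplasmic reticulum stress genes from -0.109 to 0.032, triglyceride genes from 0.015 to 0.158, ribosomal proteins from 0.009 to 0.104, the respiratory chain from -0.080 to -0.013 and hypoxia genes from -0.182 to -0.031. Single genes that changed sign were ALB (-0.08), IGFBP1 (-0.60) and SERPINA3 (-1.24) with the HepG2 share subtracted. With single libraries left out, SERPINA3 ran from -0.10 to 1.4 and FOS from -0.07 to 1.17. The unknown depth limits what genes of low TPM can show.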

Other observations

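Some genes outside the gene lists were picked after their values were seen, and their differences are given with no explanation. WNT11, a secreted Wnt ligand, had 18.3, 24.0 and 14.8 TPM in co-culture with FFAs and 12.5, 9.09 and 10.2 TPM in mono-culture, so every co-culture library was higher (log2 difference 0.77, limma SE 0.20, adjusted p 0.719). PLA2G2A, a secreted phospholipase, had 187, 119 and 85.0 TPM against 59.4, 52.3 and 90.5 TPM, with overlap through replicate 3 of both groups (0.91, limma SE 0.29, adjusted p 0.757). DHRS2, a dehydrogenase, had 52.3, 13.0 and 15.1 TPM against 9.76, 6.33 and 4.51 TPM, and the HepG2 share would bring 42.5 TPM of it to co-culture replicate 1.

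The smallest p of all genes belonged to short RNAs near the limit of expression. SCARNA10, a small RNA of Cajal bodies, was listed at 0 in all 3 co-culture libraries and at 1.63, 3.68 and 2.73 TPM in mono-culture. RN7SL199P and RN7SL656P, pseudogenes of the signal recognition particle RNA, had identical values, listed at 0 in co-culture and at 1.32, 1.26 and 1.28 TPM in mono-culture, so it is uncertain to which of the pair the reads belong.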
